A study of Mus musculus with 20 samples.

Results

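The day 6 comparison set 2 libraries of intestinal crypt cells labelled *Mettl3*-/- at day 6 against 4 wild-type (WT) libraries of crypt cells, 2 sorted as Lgr5-high and 2 sorted as Lgr5-low, out of 20 libraries in the series. Lgr5 marks the stem cells at the crypt base, and an EGFP reporter for it allows them to be sorted by flow cytometry. The day 6 labels name no gate, so the 2 day 6 libraries were set against both WT gates at once. A gene was counted only where both day 6 libraries lay above, or both lay below, all 4 WT libraries.

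*Mettl3* encodes the catalytic subunit of the complex that methylates adenosine in mRNA to N6-methyladenosine (m6A), a mark that reader proteins use to direct the splicing, translation and decay of transcripts. The crypt renews the intestinal epithelium from Lgr5-positive stem cells, which give rise to absorptive enterocytes and to secretory goblet, Paneth, enteroendocrine and tuft cells. After injury, adult crypts are known to switch on genes of the fetal intestinal epithelium, among them *Ly6a* (Sca-1), and interferon is known to induce a common set of antiviral genes in most cell types.

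The knockout mice were of the C57BL/6 strain and carried floxed *Mettl3* (Mettl3fl/fl) with a pair of tamoxifen-inducible recombinases, Lgr5-EGFP-IRES-CreERT2, active in Lgr5-positive stem cells, and Villin-CreERT2, active throughout the intestinal epithelium. Tamoxifen (20 mg/ml) was given for 4 days, per the labels' protocols. The event from which day 6 was counted, the age of the mice and the question whether each library came from its own mouse are not given in the labels, so that p-values measure only the spread between these libraries. The WT libraries, of the same strain, are labelled wild type and untreated, while the protocols describe tamoxifen injection of Mettl3fl/fl mice as well. If the WT mice received none, an effect of tamoxifen cannot be told apart from that of the genotype. In the deposited table, the column of the first day 6 library is headed with a low gate that its label lacks, and the label was used. A second, separate set of libraries served to look at the same genes outside the mouse: 2 libraries of cultured intestinal organoids of the same floxed and Cre genotype treated with 4-OHT, the active form of tamoxifen, for 2 days and labelled *Mettl3*-/-, against 2 libraries of such organoids treated with ethanol for 2 days and labelled wild type. The organoid titles carry the tag m3-flag, which the labels do not explain, and an effect of 4-OHT itself cannot be told apart from the deletion.

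Expression was read as FPKM, in which the fragments of a gene are scaled by its transcript length and by the depth of the library, and compared as log2(FPKM + 1), a scale that understates the fold change of genes near 0. Of 54838 genes, 12509 reached 1 FPKM in at least 2 of the 6 libraries and were tested. The adjusted p-values come from limma with Benjamini-Hochberg adjustment over all of them, and a gene is called rising or falling at day 6 below where both adjusted p-values, against WT Lgr5-high and against WT Lgr5-low, were under 0.05 and both day 6 libraries lay outside the WT range in that direction. The first day 6 library stood apart from the others. Its FPKM values summed to 763177, against 512381 in the second day 6 library and 465785 to 521989 in the WT libraries. Defensin genes, the antimicrobial peptides of Paneth cells, made up 42.2% of that sum in the first day 6 library and 24.7% in the second, against 15.5% to 21.3% in the WT libraries. Mitochondrial transcripts made up 4.33% and 8.87% of the sum at day 6, against 9.96% to 14.1% in the WT libraries, and ribosomal protein genes 3.66% and 5.04%, against 6.81% to 10.5%. The part of these shares in the results was not tested. The sequencing depth behind the files is not given. The steps between low values put it at roughly 24.5 M and 17 M fragments for the day 6 libraries and 15.5 M to 25.7 M for the WT libraries. Counts that depend on a single library are therefore given with and without it.

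The regulatory sequences of 4 of the genes that the results turn on are shown first, as the 250 bases before and 50 bases after the RefSeq transcription start in GRCm38.p6, printed 5′ to 3′ on the gene's own strand. Capitals mark matches on either strand to the letters GAAA and GAAA with any 2 bases between them, the core of the element through which interferon-activated factors are known to act, in *Isg15* (chr4:156200769-156201068, minus strand) and *Ifit1* (chr19:34640639-34640938, plus strand), and matches to TGANTCA, the element bound by AP-1 (Fos and Jun) proteins, in *Sprr1a* (chr3:92485832-92486131, minus strand) and *Anxa10* (chr8:62123144-62123443, minus strand).
Isg15: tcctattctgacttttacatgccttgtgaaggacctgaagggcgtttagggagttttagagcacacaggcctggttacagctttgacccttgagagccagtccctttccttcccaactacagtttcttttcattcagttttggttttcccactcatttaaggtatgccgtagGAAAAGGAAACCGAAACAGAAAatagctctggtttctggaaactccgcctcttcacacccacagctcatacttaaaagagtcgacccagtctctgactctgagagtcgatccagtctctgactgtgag
Ifit1: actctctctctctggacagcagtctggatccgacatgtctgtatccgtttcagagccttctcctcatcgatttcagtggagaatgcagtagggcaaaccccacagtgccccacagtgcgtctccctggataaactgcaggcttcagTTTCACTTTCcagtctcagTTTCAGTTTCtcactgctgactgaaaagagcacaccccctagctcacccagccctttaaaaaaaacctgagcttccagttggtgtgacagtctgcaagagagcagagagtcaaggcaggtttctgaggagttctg
Sprr1a: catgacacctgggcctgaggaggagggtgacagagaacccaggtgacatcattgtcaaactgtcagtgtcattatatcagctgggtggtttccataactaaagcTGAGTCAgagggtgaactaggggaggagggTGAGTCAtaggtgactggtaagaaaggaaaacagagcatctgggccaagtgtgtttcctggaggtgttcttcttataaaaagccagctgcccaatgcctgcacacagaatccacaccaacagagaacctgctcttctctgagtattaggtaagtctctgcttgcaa
Anxa10: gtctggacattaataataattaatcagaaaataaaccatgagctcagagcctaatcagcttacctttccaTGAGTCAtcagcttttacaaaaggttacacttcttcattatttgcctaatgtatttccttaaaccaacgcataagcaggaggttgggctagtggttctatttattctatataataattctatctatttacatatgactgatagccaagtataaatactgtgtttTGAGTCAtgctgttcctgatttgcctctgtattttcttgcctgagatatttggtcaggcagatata
The 3 matches in *Isg15* overlap and begin 78 to 66 bases before the start, and the 2 in *Ifit1* begin 104 and 85 bases before it. In *Sprr1a* the 2 matches begin 146 and 116 bases before the start, and in *Anxa10* they begin 180 and 16 bases before it. Of 27025 mouse genes with such a window, 3.99% held the paired GAAA element and 8.97% held TGANTCA. The paired GAAA element was found for 15 of the 31 interferon-stimulated antiviral genes with a window (48.4%), and TGANTCA for 7 of the 21 fetal-like and regenerative genes with a window (33.3%). TGANTCA was also found for 8 of the 31 interferon-stimulated genes (25.8%), and the paired GAAA element for 1 of the 21 fetal-like genes (4.76%). Over the tested genes with a window the shares were 3.57% for the paired GAAA element and 6.13% for TGANTCA. Among the 479 rising genes with a window the shares were 6.26% and 9.81%, and among the 356 falling genes 1.4% and 4.78%, in the same order. Neither was found in the windows of the 11 of the 15 named falling genes that had one, which are too few for an absence to be read. A match is a description of these letters, and no binding was measured.

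At day 6, 647 of the 12509 genes tested (5.17%) rose and 507 (4.05%) fell by both tests and the range rule, 9.23% in all. The shares of 5.17% and 4.05% are the background for list genes counted below as rising or falling among all tested members. Those shares do not apply to counts against a single gate, outside the WT range or in organoids. Nor do they apply to members at 1 FPKM or more in at least 2 WT libraries, or once a library, filter or scaling changed. Against WT Lgr5-high alone, 1311 genes (10.5%) were higher and 1569 (12.5%) lower, and against WT Lgr5-low alone 816 (6.52%) were higher and 706 (5.64%) lower. Both day 6 libraries lay above the WT range for 2425 genes (19.4%) and below it for 3354 (26.8%), together 46.2%, and many genes outside the range passed no test. Of those above it, 1142 were called against neither gate, and of those below it, 1812. Lying outside by at least 1 on the log2 scale was limited to 299 genes above and 180 below. Of the 647 rising genes, 468 were at 1 FPKM or more in at least 2 WT libraries, out of 11977 such genes tested, while the others entered the test only through the day 6 libraries. The median difference over all genes tested was -0.17 against WT Lgr5-high and -0.09 against WT Lgr5-low. The count of 1154 rising and falling genes fell to 183 without the first day 6 library, 799 without the second, and 540, 409, 358 and 260 without the WT Lgr5-high libraries 1 and 2 and the WT Lgr5-low libraries 1 and 2, of which 178, 613, 532, 407, 354 and 257 were among the 1154.

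**Figure D1:**
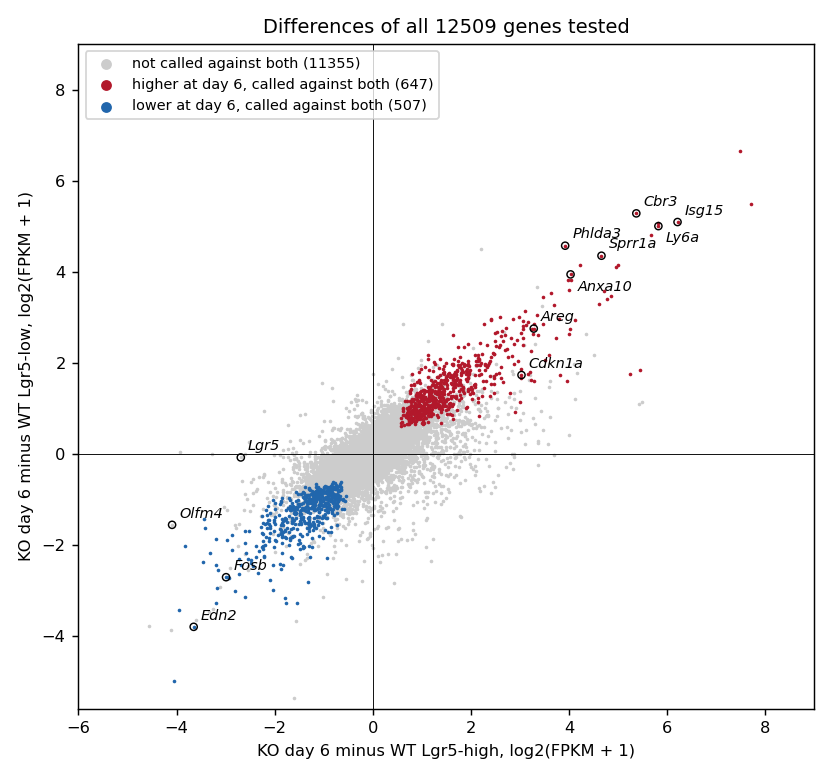
Each point is 1 of the 12509 genes tested, with the day 6 mean minus the WT Lgr5-high mean on the x axis and the day 6 mean minus the WT Lgr5-low mean on the y axis, both on log2(FPKM + 1). The 647 rising genes (red) and 507 falling genes (blue) lie in opposite corners, while *Lgr5* and *Olfm4* lie to the left, with smaller differences from WT Lgr5-low than from WT Lgr5-high.

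*Mettl3* itself was not separated at the level of the whole gene. It stood at 3.54 and 3.10 FPKM in the day 6 libraries, against 4.86 and 4.58 FPKM in WT Lgr5-high and 4.23 and 3.42 FPKM in WT Lgr5-low. The values overlap those of neither WT Lgr5-high library and span the lower WT Lgr5-low library. The difference was -0.41 ± 0.22 (SE) from WT Lgr5-high (adjusted p = 0.213) and -0.16 ± 0.22 from WT Lgr5-low (adjusted p = 0.705). A gene-level value does not show whether particular exons are gone, so it does not check the labelled deletion. Of the 17 tested genes of the m6A machinery, 1 rose and none fell, near the 5.17% of all genes tested that rose. The riser was *Ythdf2*, a reader that directs m6A-marked transcripts to decay. It had 29.1 and 32.1 FPKM at day 6, against 13.8 and 15.4 FPKM in WT Lgr5-high and 11 and 10.7 FPKM in WT Lgr5-low. The call of *Ythdf2* against WT Lgr5-high was lost without WT Lgr5-high library 1 (adjusted p = 0.0554), and both of its calls were lost at equal FPKM sums (0.192 and 0.0805). *Mettl3* overlaps *Tox4* on the opposite strand, and reads of the pair cannot be told apart without strand.

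The label of the cells as intestinal epithelium matched their markers, while their stem cell markers lay near the Lgr5-low level. *Epcam*, the epithelial adhesion molecule, stood at 507 and 397 FPKM at day 6, against 549.6 and 520.4 FPKM in WT Lgr5-high and 563 and 518 FPKM in WT Lgr5-low. Summed over 24 immune cell markers, the day 6 libraries held 25.3 and 12.6 FPKM, against 13.8 and 8.42 FPKM in WT Lgr5-high and 26.0 and 12.4 FPKM in WT Lgr5-low. *Ptprc* (CD45), the marker of all white blood cells, was at or under 0.140 FPKM in the 6 libraries, and 15 stromal and endothelial markers summed to 7.87 and 13.8 FPKM at day 6, against 1.77 to 5.20 FPKM in the WT libraries. The immune sum lay within the WT range, and the stromal sum was low but above it. The part of such cells in the results was not tested.

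*Lgr5* was listed at 0.340 and 1.27 FPKM in the day 6 libraries, against 10.1 and 10.4 FPKM in WT Lgr5-high and 0.715 and 0.974 FPKM in WT Lgr5-low. The day 6 libraries fell far below the Lgr5-high gate and on both sides of the Lgr5-low gate. The difference was -2.69 ± 0.36 from WT Lgr5-high (adjusted p = 0.00223) and -0.08 ± 0.36 from WT Lgr5-low (adjusted p = 0.921). *Olfm4*, a secreted glycoprotein abundant in crypt stem cells, had 77.2 and 384 FPKM at day 6, against 2857 and 3059.7 FPKM in WT Lgr5-high and 538 and 484 FPKM in WT Lgr5-low, below all WT libraries but called against Lgr5-high only (adjusted p = 0.00357 and 0.145). Of 30 stem cell genes tested, 23 were lower than in WT Lgr5-high, against 12.5% of all genes tested. Compared with WT Lgr5-low, 3 were higher and 2 lower, beside 6.52% and 5.64% of all genes tested. Those 2, *Slc14a1*, a urea transporter, and *Rnf43*, a membrane inhibitor of Wnt signalling, were the only stem cell genes that fell against both gates. Over all genes tested, 4.05% fell. *Slc14a1* had 0.105 and 0.734 FPKM at day 6, against 14.0 and 13.4 FPKM in WT Lgr5-high and 3.34 and 3.17 FPKM in WT Lgr5-low. *Rnf43* and *Slc14a1* both lost the call against WT Lgr5-low without the first day 6 library (adjusted p = 0.183 and 0.101) or without either WT Lgr5-low library, and without the second day 6 library 4 stem cell genes fell. In bulk RNA, fewer cells of a type and less RNA per cell cannot be told apart. Because the day 6 labels name no gate, a difference in sorting cannot be told apart from the knockout here either. The first day 6 library is the one whose column is headed with a low gate. Among genes that differed between the WT gates themselves, 55 were higher in Lgr5-high, and both day 6 libraries lay on the Lgr5-low side of the midpoint for 41 of them and on the Lgr5-high side for 8. Of 130 genes higher in WT Lgr5-low, both day 6 libraries lay on the Lgr5-low side for 85 and on the Lgr5-high side for 31, and 31 were above all 4 WT libraries. These counts use the WT libraries that chose the genes, and carry no test.

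Many interferon-stimulated genes rose. Of 40 interferon-stimulated antiviral genes, 39 were tested, 25 rose and none fell, against 5.17% of all genes that rose. Because 14 of the 39 were tested only through the day 6 libraries, the count among the 25 members that were at 1 FPKM or more in at least 2 WT libraries is given beside it, and it was 12. *Isg15*, a ubiquitin-like protein that is attached to viral and host proteins, stood at 131 and 206 FPKM in the day 6 libraries, against 1.22 and 1.25 FPKM in WT Lgr5-high and 1.94 and 7.02 FPKM in WT Lgr5-low. Both day 6 libraries were far above every WT library, with a difference of 6.21 ± 0.50 from WT Lgr5-high (adjusted p = 3.9e-04) and 5.09 ± 0.50 from WT Lgr5-low (adjusted p = 0.00144). *Ifit1*, which binds viral RNA lacking a host cap, had 24.7 and 44.9 FPKM at day 6, against 0.170 and 0.0419 FPKM in WT Lgr5-high and 0.588 and 1.51 FPKM in WT Lgr5-low. *Bst2* (tetherin), which holds budding virus at the cell surface, had 119 and 128 FPKM at day 6, against 12.6 and 14.3 FPKM in WT Lgr5-high and 12.4 and 14.1 FPKM in WT Lgr5-low. The groups did not overlap for either gene, and *Bst2* varied little within each.

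The rise included sensors and effectors. *Oas1a* and *Oas1g* encode enzymes that make 2′-5′ oligoadenylate on binding double-stranded RNA and so activate RNase L. *Oas1a* had 84.9 and 74.4 FPKM at day 6, against 9.53 and 5.80 FPKM in WT Lgr5-high and 12.3 and 10 FPKM in WT Lgr5-low. *Oas1g* had 37.2 and 30.4 FPKM at day 6, against 1.78 and 1.26 FPKM in WT Lgr5-high and 3.66 and 3.20 FPKM in WT Lgr5-low, but both genes are close paralogs whose reads may be shared. *Rtp4*, an interferon-induced zinc-finger protein, had 17.2 and 24.6 FPKM at day 6, against 0.648 and 0.844 FPKM in WT Lgr5-high and 0.518 and 1.31 FPKM in WT Lgr5-low. Not every member moved. *Lgals9*, a galectin, had 246 and 311 FPKM at day 6, against 263 and 218 FPKM in WT Lgr5-high and 269.7 and 222 FPKM in WT Lgr5-low. *Ifitm3*, a membrane protein that blocks viral fusion, was higher than in WT Lgr5-low (by 1.75, adjusted p = 0.0138) and spanned WT Lgr5-high (difference 0.01, adjusted p = 0.984), with 156 and 221 FPKM at day 6, against 178 and 191 FPKM in WT Lgr5-high and 55.9 and 53.3 FPKM in WT Lgr5-low. Both genes were named after their values were seen.

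The second day 6 library held the higher value for 20 of the 25 rising interferon-stimulated genes, whereas over all 647 rising genes the first day 6 library held it for 409. The count of 25 fell to 12 without the first day 6 library, 9 without the second, 14 and 13 without the WT Lgr5-low libraries 1 and 2, and 16 with no filter on low values or with a filter at 5 FPKM. Over all genes tested, 533 of 27982 rose with no filter and 453 of 7983 with the filter at 5 FPKM. With a library left out, the calls over all genes fell as well, as given above. Members at 1 FPKM or more in no WT library also leave the tested genes once either day 6 library is left out. Fewer genes that induce and relay interferon rose. Of 22 such genes tested, 4 rose and none fell. *Irf7*, the transcription factor that amplifies interferon production, had 18.6 and 18.7 FPKM at day 6, against 1.82 and 1.52 FPKM in WT Lgr5-high and 4.09 and 3.91 FPKM in WT Lgr5-low. *Tmem173* (STING), the adaptor for cytosolic DNA sensing, had 18.6 and 12.7 FPKM at day 6, against 2.22 and 1.27 FPKM in WT Lgr5-high and 1.52 and 0.664 FPKM in WT Lgr5-low. The others that rose were *Dhx58* (LGP2), a regulator of cytosolic RNA sensing, by 2.08 and 1.72, and *Ifnar2*, a chain of the type I interferon receptor, by 0.72 and 0.78 on the log2 scale over the Lgr5-high and Lgr5-low gates. *Ifnar2* lost both calls with any 1 of the 6 libraries left out and at equal FPKM sums (limma adjusted p = 0.343 and 0.335). At equal sums *Dhx58* lost the call against WT Lgr5-low (0.0746). The count of 4 was 2 or 3 with any 1 of the 6 libraries left out, 2 at equal FPKM sums and 9 after quantile normalization. *Irf9*, the DNA-binding part of the factor that interferon activates, was at 8.84 and 12.3 FPKM at day 6, against 6.35 and 6.09 FPKM in WT Lgr5-high and 4.54 and 6.25 FPKM in WT Lgr5-low, above the WT range but by the tests called against WT Lgr5-low (adjusted p = 0.0464) and not against WT Lgr5-high (adjusted p = 0.0689). The call of *Irf9* against WT Lgr5-low was lost with any 1 of the 6 libraries left out (0.0837 to 0.274), with no filter (0.0811) and at equal FPKM sums (0.407), and 1 against WT Lgr5-high was gained with median-of-ratios scaling (0.0167) and quantile normalization (0.0138). Of 9 tested interferon-inducible GTPases, which act on membranes around intracellular microbes, *Irgm1*, *Irgm2* and *Gbp3* rose, and 5 of the 9 were tested only through the day 6 libraries. *Irgm1* had 23.7 and 43.7 FPKM at day 6, against 7.07 and 5.78 FPKM in WT Lgr5-high and 6.84 and 7.02 FPKM in WT Lgr5-low. The count of 3 was 1 with any 1 of the 6 libraries left out. Of 20 genes of MHC class I antigen processing, 1 rose, *H2-T22*, near the 5.17% of all genes tested that rose. Of 7 MHC class II genes 1 fell, *H2-DMa*, against 4.05% of all genes tested. The call of *H2-T22* was lost with any 1 of the 6 libraries left out and that of *H2-DMa* with any but the second day 6 library.

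**Figure D2:**
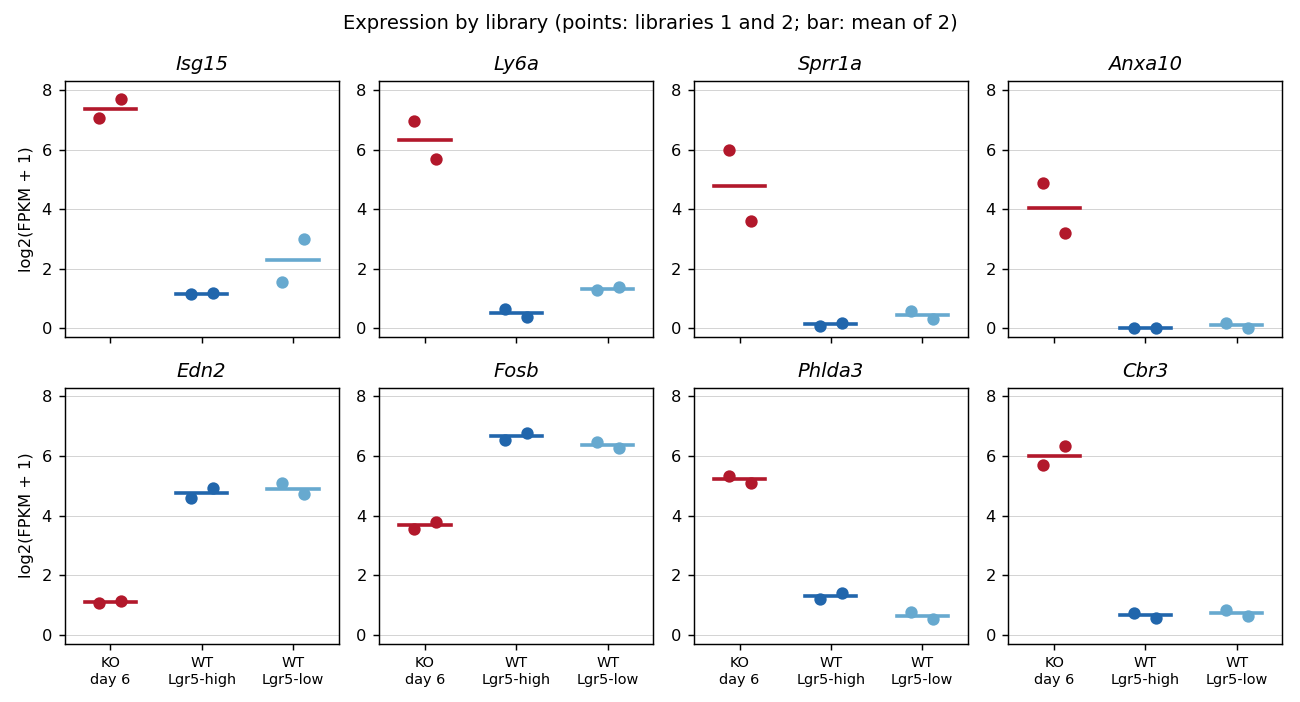
Each panel shows 1 gene, with log2(FPKM + 1) on the y axis, a point for each library and a bar for the mean of 2 libraries, for KO day 6, WT Lgr5-high and WT Lgr5-low. *Isg15*, *Ly6a*, *Sprr1a*, *Anxa10*, *Phlda3* and *Cbr3* lie above every WT library at day 6, and *Edn2* and *Fosb* lie below every WT library.

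Genes of the fetal-like and regenerative list rose next to them, with a different balance between the 2 day 6 libraries. Of 35 listed genes 26 were tested, 13 rose and 1, *Hbegf*, fell. As 9 of the 26 were tested only through the day 6 libraries, the count among the 17 members at 1 FPKM or more in at least 2 WT libraries was 5. *Ly6a* (Sca-1), a surface protein of fetal and injured intestinal epithelium, had 122 and 50.8 FPKM at day 6, against 0.551 and 0.294 FPKM in WT Lgr5-high and 1.41 and 1.60 FPKM in WT Lgr5-low. Both day 6 libraries exceeded every WT library, with differences of 5.82 ± 0.69 (adjusted p = 0.0015) and 5.0 ± 0.69 (adjusted p = 0.00366). *Sprr1a*, a small proline-rich protein of stressed epithelia, had 61.8 and 11.2 FPKM at day 6, against 0.0487 and 0.138 FPKM in WT Lgr5-high and 0.491 and 0.238 FPKM in WT Lgr5-low. *Anxa10*, a gastric annexin, had 28.4 and 8.19 FPKM at day 6, against 0.0162 FPKM and a listed 0 in WT Lgr5-high and 0.143 FPKM and a listed 0 in WT Lgr5-low. All 3 were close to 0 in the WT libraries and higher in the first day 6 library than in the second. The differences of *Sprr1a* were 4.66 ± 0.65 and 4.35 ± 0.65 (adjusted p = 0.0026 and 0.00497), and those of *Anxa10* were 4.03 ± 0.43 and 3.94 ± 0.43 (adjusted p = 0.00111 and 0.00211), against WT Lgr5-high and WT Lgr5-low in that order.

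Other members rose too. *Plaur*, the urokinase receptor, had 32.3 and 14.3 FPKM at day 6, against 0.332 and 0.534 FPKM in WT Lgr5-high and 0.706 and 0.504 FPKM in WT Lgr5-low. *S100a6*, a calcium-binding protein, had 168 and 65.2 FPKM at day 6, against 2.40 and 2.88 FPKM in WT Lgr5-high and 10 and 7.30 FPKM in WT Lgr5-low. *Il1rn*, the interleukin-1 receptor antagonist, rose from a low level, with 1.62 and 1.65 FPKM at day 6, against 0.113 and 0.0801 FPKM in WT Lgr5-high and 0.0571 and 0.0459 FPKM in WT Lgr5-low. The first day 6 library held the higher value for 12 of the 13 rising members, and the count fell to 4 without that library and to 10 without the second. Several of the 13, among them *Sprr1a*, *Anxa10* and *Plaur*, reach 1 FPKM in the day 6 libraries alone and drop out of the tested genes once either is left out. *Ccn1*, a secreted matrix protein and target of YAP, went the other way, with 19.0 and 14.8 FPKM at day 6, against 133 and 155 FPKM in WT Lgr5-high and 42.3 and 36.0 FPKM in WT Lgr5-low, though it was called against Lgr5-high only (adjusted p = 0.00444 and 0.16) and was named after its values were seen.

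The 3 copies of *Sprr2a* were among the 5 largest named rises. *Sprr2a1* had 668 and 339.8 FPKM at day 6, against 2.21 and 0.643 FPKM in WT Lgr5-high and 16 and 5.66 FPKM in WT Lgr5-low. *Sprr2a2* and *Sprr2a3* rose as well, by at least 6.66 and 5.06, but the copies are nearly identical and the split of reads between them is uncertain. *Anxa8*, an annexin of stratified epithelia, had 32.4 and 9.89 FPKM at day 6, against a listed 0 and 0.0444 FPKM in WT Lgr5-high and 0.0620 and 0.0993 FPKM in WT Lgr5-low. *Mboat1*, a lysophospholipid acyltransferase, had 56.7 and 40.9 FPKM at day 6, against 2.35 and 1.66 FPKM in WT Lgr5-high and 3.06 and 1.99 FPKM in WT Lgr5-low. *Sprr2a2* lost its call against WT Lgr5-low without the first day 6 library (difference 6.10, adjusted p = 0.075).

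Targets of the transcription factor p53 made up the next group. Of 31 listed targets 28 were tested, 14 rose and 1 fell, and 1 of the 28 was tested only through the day 6 libraries. Of the other 27, 13 rose. *Phlda3*, an inhibitor of Akt, had 39.6 and 33.0 FPKM at day 6, against 1.3 and 1.62 FPKM in WT Lgr5-high and 0.685 and 0.447 FPKM in WT Lgr5-low. It was the most sharply separated of them, by 3.92 ± 0.23 (adjusted p = 1.3e-04) and 4.57 ± 0.23 (adjusted p = 9.3e-05). *Cdkn1a* (p21), which arrests the cell cycle, had 99.7 and 85.5 FPKM at day 6, against 10.1 and 10.7 FPKM in WT Lgr5-high and 25.9 and 28.3 FPKM in WT Lgr5-low. *Bax*, which opens the mitochondrial outer membrane in apoptosis, had 113 and 84.2 FPKM at day 6, against 30.3 and 27.6 FPKM in WT Lgr5-high and 29.5 and 25 FPKM in WT Lgr5-low. *Mdm2*, the ubiquitin ligase that degrades p53, had 13.3 and 15.2 FPKM at day 6, against 5.71 and 6.05 FPKM in WT Lgr5-high and 5.36 and 5.45 FPKM in WT Lgr5-low. None of these 4 overlapped between the groups. *Plk2* and *Gdf15*, a kinase and a secreted stress factor, rose by at least 1.61 and 1.94 on the log2 scale. *Trp53*, which encodes p53, was lower than in both gates, with 14.3 and 16.2 FPKM at day 6, against 42.5 and 41.5 FPKM in WT Lgr5-high and 29.7 and 24.0 FPKM in WT Lgr5-low, and was called against Lgr5-high only (adjusted p = 0.00856 and 0.102). *Sesn1* was the member that fell, with 2.45 and 6.02 FPKM at day 6, against 9.74 and 9.42 FPKM in WT Lgr5-high and 15.7 and 16.5 FPKM in WT Lgr5-low. *Pmaip1* (Noxa), which triggers apoptosis, was called against neither gate. *Trp53*, *Sesn1* and *Pmaip1* were named after their values were seen. The count of 14 fell to 4 and 6 without the first and the second day 6 library, 5 and 6 without the WT Lgr5-high libraries 1 and 2, 6 and 2 without the WT Lgr5-low libraries 1 and 2, 9 with no filter and 5 after scaling all libraries to equal FPKM sums.

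Genes of the integrated stress response and of redox defence rose in part. Of 18 stress response genes tested, 9 rose and 1, *Cth*, fell. As 3 of the 18 were tested only through the day 6 libraries, the count among the 15 members at 1 FPKM or more in at least 2 WT libraries was 7. *Trib3*, a pseudokinase induced by the factor ATF4, had 7.88 and 4.25 FPKM at day 6, against 0.286 and 0.327 FPKM in WT Lgr5-high and 0.846 and 1.39 FPKM in WT Lgr5-low. *Psat1*, an enzyme of serine synthesis, had 19.1 and 20.6 FPKM at day 6, against 5.4 and 7.44 FPKM in WT Lgr5-high and 3.98 and 4.53 FPKM in WT Lgr5-low. *Chac1*, which breaks down glutathione, *Mthfd2*, of mitochondrial folate metabolism, and *Asns*, asparagine synthetase, rose by at least 2.20, 0.79 and 0.98 on the log2 scale. *Atf4* itself was inside the WT range, at 87.6 and 101 FPKM at day 6, against 75.5 and 74.8 FPKM in WT Lgr5-high and 105 and 73.2 FPKM in WT Lgr5-low, and none of 15 genes of the unfolded protein response tested rose or fell. The count of 9 fell to 1 and 5 without the first and the second day 6 library, 5 and 3 without the WT Lgr5-high libraries 1 and 2, 6 and 3 without the WT Lgr5-low libraries 1 and 2, and 4 at equal FPKM sums. *Atf4* and *Cth* were named after their values were seen.

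Of 18 redox and metallothionein genes tested, 7 rose and none fell. Here too 3 of the 18 were tested only through the day 6 libraries, and 4 of the other 15 rose. *Cbr3*, a carbonyl reductase, had 51.4 and 79.2 FPKM at day 6, against 0.663 and 0.481 FPKM in WT Lgr5-high and 0.772 and 0.560 FPKM in WT Lgr5-low. Its differences were 5.37 ± 0.24 (adjusted p = 7.2e-05) and 5.28 ± 0.24 (adjusted p = 8.2e-05). *Hmox1*, haem oxygenase, had 9.22 and 5.23 FPKM at day 6, against 0.259 and 0.218 FPKM in WT Lgr5-high and 0.543 and 0.109 FPKM in WT Lgr5-low. *Mt2*, a metallothionein that binds zinc, had 93.7 and 128 FPKM at day 6, against 13.9 and 10.6 FPKM in WT Lgr5-high and 20.5 and 11.6 FPKM in WT Lgr5-low. *Gsta4* and *Gstm1*, glutathione transferases, rose by at least 1.72 and 2.09, and *Slc7a11*, the cystine importer, by at least 1.43. *Nqo1*, a reductase often read as a target of the factor NRF2, had 21.3 and 31.2 FPKM at day 6. It had 10.1 and 9.63 FPKM in WT Lgr5-high and 25.5 and 28.8 FPKM in WT Lgr5-low. Its second day 6 library was above every WT library and its first was not. *Nqo1* was called higher than WT Lgr5-high, a call lost at equal FPKM sums (limma adjusted p = 0.111), and was not called against WT Lgr5-low. It was named after its values were seen. The count of 7 fell to 3 without either day 6 library, since *Cbr3* among others reaches 1 FPKM in the day 6 libraries alone and then leaves the tested genes, and was 11 when only the 6 libraries compared entered the fit.

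**Figure D3:**
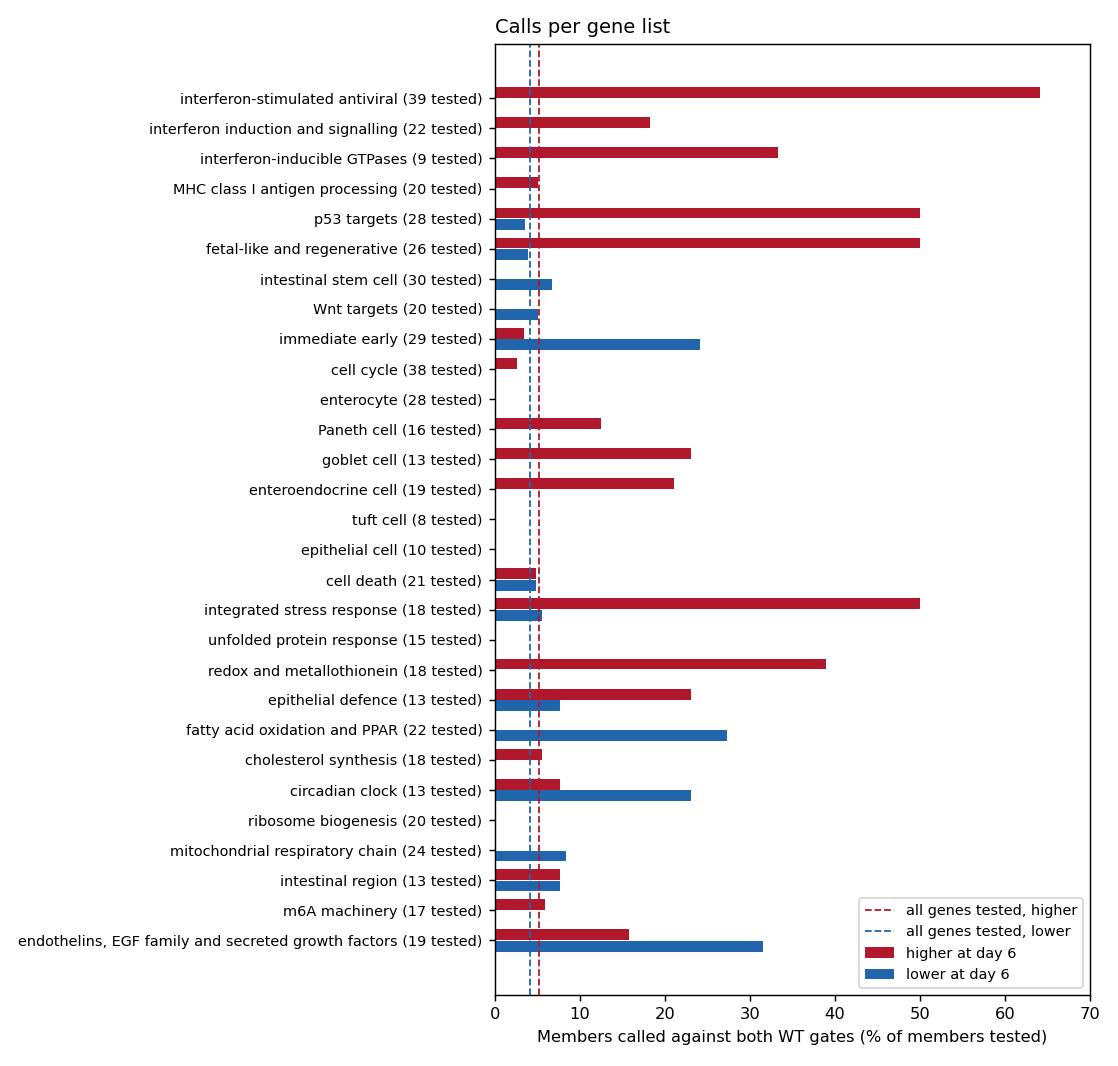
Bars give the share of each gene list's tested members that rose (red) or fell (blue) against both WT gates, for lists with at least 8 tested members, and dashed lines give the same shares over all genes tested, 5.17% and 4.05%. The interferon-stimulated, p53 target, fetal-like and integrated stress response lists have the longest red bars, and the stem cell, cell cycle, tuft cell and enterocyte lists stay near or below the red dashed line.

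Immediate early genes, which cells switch on within minutes of growth factor or stress signals, fell in part. Of 29 tested, 7 fell and 1 rose, against 4.05% of all genes that fell. *Fosb*, an AP-1 subunit, had 10.7 and 12.9 FPKM at day 6, against 92.6 and 108 FPKM in WT Lgr5-high and 88.0 and 76.5 FPKM in WT Lgr5-low. Both day 6 libraries lay far below all WT libraries, with differences of -2.99 ± 0.32 (adjusted p = 0.00111) and -2.71 ± 0.32 (adjusted p = 0.00249). *Fos* had 147 and 149 FPKM at day 6, against 674 and 611 FPKM in WT Lgr5-high and 626 and 497 FPKM in WT Lgr5-low. *Jun*, the partner of Fos proteins, had 87.4 and 109 FPKM at day 6, against 452 and 488 FPKM in WT Lgr5-high and 363 and 298 FPKM in WT Lgr5-low. *Dusp1*, a phosphatase that turns off MAP kinases, had 18.7 and 20.6 FPKM at day 6, against 96.6 and 99.7 FPKM in WT Lgr5-high and 91.9 and 76.7 FPKM in WT Lgr5-low. *Zfp36* (tristetraprolin), which destabilises AU-rich mRNAs, fell by 1.55 and 1.66 on the log2 scale. The day 6 libraries agreed closely with each other on these genes. *Dusp6*, a phosphatase specific for ERK, was the member that rose, with 25.9 and 20.9 FPKM at day 6, against 2.27 and 2.38 FPKM in WT Lgr5-high and 2.79 and 4.52 FPKM in WT Lgr5-low. The count of 7 fell to 3 without the first day 6 library, where *Fos* and *Dusp1* lost a call, and the rise of *Dusp6* was lost without that library or without WT Lgr5-low library 1.

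Of the 4 factors that the study overexpressed in organoids, *Fosb* fell against both gates. *Ascl2*, a transcription factor of intestinal stem cells, had 3.99 and 7.21 FPKM at day 6, against 39.1 and 40.0 FPKM in WT Lgr5-high and 9.40 and 7.91 FPKM in WT Lgr5-low. *Klf9*, a zinc-finger repressor, had 3.81 and 8.2 FPKM at day 6, against 15.7 and 19.2 FPKM in WT Lgr5-high and 9.54 and 11.3 FPKM in WT Lgr5-low. *Purb*, a protein that binds purine-rich single-stranded DNA and RNA, had 6.04 and 13.1 FPKM at day 6, against 23 and 26.9 FPKM in WT Lgr5-high and 19.1 and 23.4 FPKM in WT Lgr5-low. All 3 lay below the 4 WT libraries and were called against WT Lgr5-high but not WT Lgr5-low, with adjusted p-values of 0.00157, 0.049 and 0.0322, while those against WT Lgr5-low were 0.269, 0.309 and 0.086. With no filter, *Klf9* (adjusted p = 0.122) and *Purb* (0.0851) lost the call against WT Lgr5-high. *Klf9* also lost it on log2(FPKM + 0.1) (0.0602) and at equal FPKM sums (0.0501). The call of *Klf9* was lost with any single library left out other than the second day 6 library, to adjusted p-values between 0.0737 and 0.277, and that of *Purb* in the same 5 cases, to between 0.0513 and 0.207. Without the second day 6 library *Purb* was called lower than WT Lgr5-low as well (adjusted p = 0.0405).

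**Figure D4:**
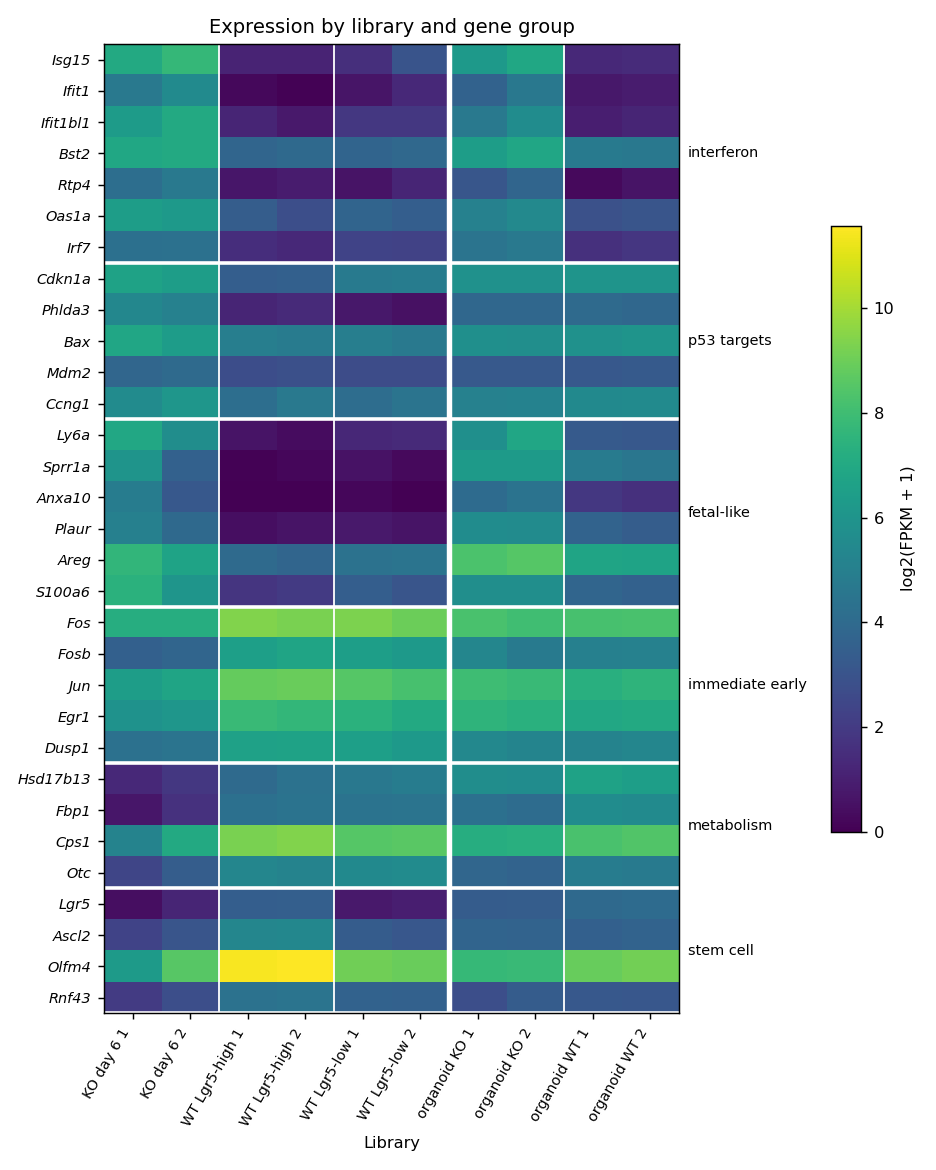
Colour gives log2(FPKM + 1) for 31 genes in 6 groups (rows) in the day 6, WT Lgr5-high, WT Lgr5-low, organoid KO and organoid WT libraries (columns). Interferon and fetal-like genes are high in both knockout sets, p53 targets are high and immediate early genes low at day 6 alone of the 3 tissue groups, and in organoids the colours of these 2 groups differ little between knockout and WT.

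The largest fall among the named genes was that of *Edn2*, which encodes the secreted peptide endothelin-2. *Edn2* had 1.10 and 1.18 FPKM at day 6, against 23 and 29.2 FPKM in WT Lgr5-high and 32.9 and 25.3 FPKM in WT Lgr5-low. Neither gate's libraries came near the day 6 values, with differences of -3.65 ± 0.32 (adjusted p = 5.3e-04) and -3.80 ± 0.32 (adjusted p = 8.7e-04). Among the other secreted growth factors, receptors and their targets, the EGF receptor ligands *Areg* (amphiregulin), *Ereg* (epiregulin) and *Btc* (betacellulin) rose. *Areg* had 193 and 104 FPKM at day 6, against 14.9 and 12.5 FPKM in WT Lgr5-high and 19.5 and 21.0 FPKM in WT Lgr5-low. *Ereg* had 5.49 and 5.24 FPKM at day 6, against 0.215 and 0.174 FPKM in WT Lgr5-high and 0.413 and 0.518 FPKM in WT Lgr5-low. *Hbegf*, a ligand of the same receptor, fell, with 19.8 and 13.6 FPKM at day 6, against 50.1 and 52.2 FPKM in WT Lgr5-high and 53.9 and 45.5 FPKM in WT Lgr5-low. The fall of *Hbegf* was lost with any 1 of the 6 libraries left out (adjusted p against WT Lgr5-low 0.0659 to 0.183), with no filter (0.106), with median-of-ratios scaling (0.0605) and with quantile normalization (0.0519). *Id2* and *Id3*, inhibitors of basic helix-loop-helix factors that BMP signalling induces, fell, *Id3* to 24.3 and 25.8 FPKM at day 6, against 50.6 and 58.6 FPKM in WT Lgr5-high and 63.1 and 53.1 FPKM in WT Lgr5-low. In all, 3 of 19 tested genes of this list rose and 6 fell, the others being *Id1* and *Erbb2*, a receptor of the EGF receptor family, which with *Hbegf* were named after their values were seen. The count of 6 fell to 1 without the first day 6 library, 2 and 1 without the WT Lgr5-high libraries 1 and 2, 1 without either WT Lgr5-low library and 3 with no filter. *Edn2* kept both calls in all of these.

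Several of the other large falls were of metabolic enzymes. *Fbp1*, fructose-bisphosphatase of gluconeogenesis, had 0.601 and 2.12 FPKM at day 6, against 18.4 and 20.5 FPKM in WT Lgr5-high and 20.0 and 21.2 FPKM in WT Lgr5-low. *Cps1* and *Otc*, the first enzymes of the urea cycle and of citrulline synthesis, fell, *Otc* to 4.32 and 9.68 FPKM at day 6, against 38.2 and 35.8 FPKM in WT Lgr5-high and 44.1 and 46.3 FPKM in WT Lgr5-low. *Oat*, ornithine aminotransferase, had 67.1 and 147 FPKM at day 6, against 717 and 846 FPKM in WT Lgr5-high and 619 and 684 FPKM in WT Lgr5-low. The day 6 values of *Fbp1*, *Cps1*, *Otc* and *Oat* all lay below every WT library. *Hsd17b13*, a lipid droplet dehydrogenase, had 1.51 and 2.68 FPKM at day 6, against 15.2 and 19.9 FPKM in WT Lgr5-high and 24.0 and 28.1 FPKM in WT Lgr5-low. Of 22 genes of fatty acid oxidation and PPAR signalling, 6 fell, with *Acadm*, *Acaa2*, *Pdk4* and *Plin2* among them, and none rose. That count was 1 without the first day 6 library, 3 and 2 without the WT Lgr5-high libraries 1 and 2, 1 without either WT Lgr5-low library and 2 with no filter. *Cps1* (35.6 and 132 FPKM at day 6, against 603 and 671 FPKM in WT Lgr5-high and 363 and 394 FPKM in WT Lgr5-low) lost the call against WT Lgr5-low without the first day 6 library (adjusted p = 0.144), without WT Lgr5-low library 1 (0.114) or 2 (0.152) and with no filter (0.087), and that against WT Lgr5-high without WT Lgr5-high library 2 (0.0514).

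A pair of nuclear receptor genes fell as well. *Vdr*, the vitamin D receptor, had 6.86 and 15.3 FPKM at day 6, against 97.6 and 102 FPKM in WT Lgr5-high and 62.3 and 68.9 FPKM in WT Lgr5-low. *Thra*, a thyroid hormone receptor, had 2.45 and 5.91 FPKM at day 6, against 27.4 and 33.5 FPKM in WT Lgr5-high and 23.3 and 28.3 FPKM in WT Lgr5-low. *Thra* overlaps *Nr1d1*, a repressor of the circadian clock that also fell (by 1.71 and 2.01 on the log2 scale), on the opposite strand, and reads of the pair cannot be told apart because the files are not stated to keep strand. *Per1*, a clock gene, fell and *Cry1* rose among 13 tested clock genes, in which 3 fell and 1 rose. The call of *Per1* against WT Lgr5-low was lost without the first day 6 library (adjusted p = 0.14) or without either WT Lgr5-low library (0.114 and 0.153), and *Cry1* lost its calls with any 1 of the 6 libraries left out. The count of 3 was 1 without the first day 6 library, without either WT Lgr5-low library and with no filter. The remaining large falls were *Pipox*, *Pbld1*, *Add3*, *H2afv* and *Pyroxd2*, by 2.80, 2.73, 2.63, 2.44 and 2.39 in the smaller of the differences from the 2 gates. *Add3*, an adducin of the membrane skeleton, lost the call against WT Lgr5-low without WT Lgr5-low library 2 (adjusted p = 0.0587).

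Some genes of secretory cells rose, and no enterocyte gene rose or fell. Of 28 enterocyte genes tested, 14 were higher than in WT Lgr5-high, against 10.5% of all genes tested. None differed from WT Lgr5-low by the test, against 12.2% of all genes tested, and none rose or fell against both gates. The summed FPKM of the enterocyte list was 4601 and 5268 at day 6, against 817 and 879.6 in WT Lgr5-high and 3294 and 5740.0 in WT Lgr5-low. Enteroendocrine genes rose in 4 of 19 tested, goblet genes in 3 of 13 and Paneth genes in 2 of 16, against 5.17% of all genes tested. None of these secretory genes fell. *Pyy*, a gut hormone of distal L cells, had 66.1 and 35.7 FPKM at day 6, against 3.03 and 1.01 FPKM in WT Lgr5-high and 5.81 and 5.24 FPKM in WT Lgr5-low. *Gcg*, which encodes the glucagon-like peptides, had 157 and 220.1 FPKM at day 6, against 21.2 and 9.66 FPKM in WT Lgr5-high and 47.8 and 34.5 FPKM in WT Lgr5-low. *Nts* (neurotensin) had 40.0 and 52.8 FPKM at day 6, against 0.423 and 1.05 FPKM in WT Lgr5-high and 3.56 and 3.35 FPKM in WT Lgr5-low. All these hormone genes were above every WT library, and higher in WT Lgr5-low than in WT Lgr5-high in each library. *Atoh1*, the transcription factor of secretory fate, had 32.8 and 37.8 FPKM at day 6, against 10.4 and 6.23 FPKM in WT Lgr5-high and 14.4 and 10.2 FPKM in WT Lgr5-low. *Agr2*, a disulfide isomerase of goblet cells, had 801 and 782 FPKM at day 6, against 123 and 125 FPKM in WT Lgr5-high and 251 and 277 FPKM in WT Lgr5-low. *Mmp7*, the Paneth cell protease that activates defensins, had 2181 and 755 FPKM at day 6, against 336 and 225 FPKM in WT Lgr5-high and 305 and 256 FPKM in WT Lgr5-low. These calls depended on single libraries. The goblet count of 3 was 0 without the first day 6 library or WT Lgr5-low library 2 and 1 or 2 without any other, and the enteroendocrine count of 4 was 0 without the first day 6 library or either WT Lgr5-low library and 1 without the second day 6 library. The Paneth count of 2 was 7 without the second day 6 library, 2 without WT Lgr5-high library 1 and 0 without any other, and the first day 6 library is the one with the highest defensin share. In the fit with no filter on low values these counts were 1 goblet, 0 enteroendocrine and 1 Paneth gene. None of 8 tuft cell genes tested rose or fell.

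Genes of epithelial defence moved both ways. *Duoxa2*, which matures the peroxide-producing oxidase *Duox2*, had 149 and 57.1 FPKM at day 6, against 3.92 and 0.718 FPKM in WT Lgr5-high and 6.06 and 3.0 FPKM in WT Lgr5-low, and overlaps its neighbour *Duoxa1* on the other strand. *Cxcl10*, a chemokine that interferon induces, had 3.30 and 8.88 FPKM at day 6, against 0.235 and 0.160 FPKM in WT Lgr5-high and 0.307 and 0.508 FPKM in WT Lgr5-low. *Retnlb*, a secreted antibacterial protein of goblet cells, had 69.5 and 8.45 FPKM at day 6, against 1.3 and 0.156 FPKM in WT Lgr5-high and 2.33 and 0.358 FPKM in WT Lgr5-low. *Reg3g*, an antibacterial lectin, had 2860.1 and 856 FPKM at day 6, against 165 and 35.3 FPKM in WT Lgr5-high and 426 and 151 FPKM in WT Lgr5-low, and was called against WT Lgr5-high (adjusted p = 0.00689) but not WT Lgr5-low (adjusted p = 0.0659), where it was called with quantile normalization (0.0499) or without either WT Lgr5-high library (0.0416 and 0.0415). *Pigr*, the receptor that carries antibodies into the lumen, fell to 271 and 525 FPKM at day 6, against 1080.3 and 855 FPKM in WT Lgr5-high and 1310.4 and 1036 FPKM in WT Lgr5-low. In all, 3 of 13 tested genes of this list rose and 1 fell. The count of 3 was 1 without the first day 6 library or either WT Lgr5-low library and 2 without the second day 6 library or WT Lgr5-high library 2, and the fall of *Pigr* was lost without any 1 library other than the second day 6 library.

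Few proliferation genes were called against both gates. Of 38 cell cycle genes, 1 rose (*Rrm2*, a subunit of ribonucleotide reductase) and none fell against both gates. However, 11 were lower than in WT Lgr5-high, against 12.5% of all genes, and 18 lay below all WT libraries, against 26.8% of all genes. *Mki67*, the Ki-67 proliferation marker, had 17.1 and 30.5 FPKM at day 6, against 38.8 and 43.2 FPKM in WT Lgr5-high and 27.0 and 33.2 FPKM in WT Lgr5-low (adjusted p = 0.117 and 0.531). *Myc*, the growth-promoting transcription factor, had 20.2 and 25.9 FPKM at day 6, against 31.2 and 23.5 FPKM in WT Lgr5-high and 16.3 and 8.92 FPKM in WT Lgr5-low (adjusted p = 0.616 and 0.114). Both overlapped the WT libraries. The rise of *Rrm2*, with 36.8 and 36.1 FPKM at day 6, against 19.5 and 20.6 FPKM in WT Lgr5-high and 19.4 and 18.3 FPKM in WT Lgr5-low, was lost with any 1 of the 6 libraries left out.

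Across the earlier time points of the knockout, the 5 marker genes followed different courses. *Isg15* was at 1.22 to 7.02 FPKM in the 4 WT libraries, 6.18 and 8.41 FPKM in the Lgr5-high and Lgr5-low libraries of day 3, 31.0 to 72.1 FPKM in the 4 libraries of day 4 and 131 and 206 FPKM at day 6. *Ly6a* was at 0.294 to 1.60 FPKM in WT, 0.950 and 2.53 FPKM at day 3, 6.79 to 48.5 FPKM at day 4 and 122 and 50.8 FPKM at day 6. *Sprr1a* stayed at or under 3.07 FPKM up to day 4, with 0.142 and 0.162 FPKM at day 3, and *Anxa10* at or under 0.217 FPKM. *Edn2* was at 23 to 32.9 FPKM in WT, 12.5 and 11.4 FPKM at day 3, 1.99 to 5.11 FPKM at day 4 and 1.10 and 1.18 FPKM at day 6. *Edn2* was thus below the WT range in every library from day 3 on. *Isg15* and *Ly6a* were above it in every library from day 4 on, and already in a day 3 library. *Sprr1a* and *Anxa10* had their highest values in the day 6 libraries, though *Sprr1a* was above its WT values, at 3.07 FPKM, in a day 4 library. The days differ in gate as well as time, day 3 has 1 library per gate, and the trend was not tested.

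The organoids, whose libraries share no control with the day 6 comparison, allowed the same genes to be read again. Organoid knockout against organoid WT called 2109 of 12657 genes higher (16.7%) and 1461 lower (11.5%). Of the 647 genes that rose at day 6, 608 were tested in organoids and 438 of them were higher there (72.0%), against 16.7% of the 11910 genes tested in both sets, and 14 were lower. These 438 were 20.8% of the organoid genes called higher. Of the 507 that fell, 459 were tested and 240 were lower in knockout organoids (52.3%), against 11.8% of all, and 18 were higher. They were 16.4% of the organoid genes called lower. *Isg15* had 74.2 and 117 FPKM in knockout organoids, against 1.54 and 1.71 FPKM in WT organoids (difference 5.16 ± 0.21, adjusted p = 1.5e-04). *Ly6a* had 53.9 and 113 FPKM in knockout organoids, against 8.81 and 8.25 FPKM in WT organoids (adjusted p = 0.00215), *Sprr1a* 77.9 FPKM in both knockout libraries, against 27.3 and 22.5 FPKM in WT organoids (adjusted p = 6.8e-04), and *Anxa10* 15.6 and 20.2 FPKM in knockout organoids, against 2.71 and 2.08 FPKM in WT organoids (adjusted p = 7.3e-04). All 4 rising markers were thus higher in knockout organoids too, from a WT level that was higher than in WT tissue for *Sprr1a* and *Anxa10*. *Edn2* was low in both groups of organoids, with 1.81 and 0.934 FPKM in knockout and 1.68 and 2.41 FPKM in WT (adjusted p = 0.339).

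By list, 37 of 39 tested interferon-stimulated genes and 14 of 25 tested fetal-like genes were higher in knockout organoids and none lower. For p53 targets 3 of 28 were higher and 7 lower, and for immediate early genes 18 of 29 were higher and none lower, so that these 2 lists did not repeat their day 6 direction. *Phlda3* had 13.6 FPKM in both knockout organoid libraries, against 14.9 and 13.5 FPKM in WT organoids (adjusted p = 0.584), and *Fosb* had 38.2 and 25.4 FPKM, against 31.8 and 33.2 FPKM (adjusted p = 0.839). Of the 15 largest rises at day 6, 11 were also higher in knockout organoids, the exceptions being *Phlda3* and the 3 copies of *Sprr2a*. Of the 15 largest falls, 12 were lower in knockout organoids, the exceptions being *Edn2*, *Fosb* and *Pyroxd2*. A test of the difference between the day 6 and the organoid effects was not made, since the WT organoids differ from WT crypt cells in culture, treatment and time.

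**Figure D5:**
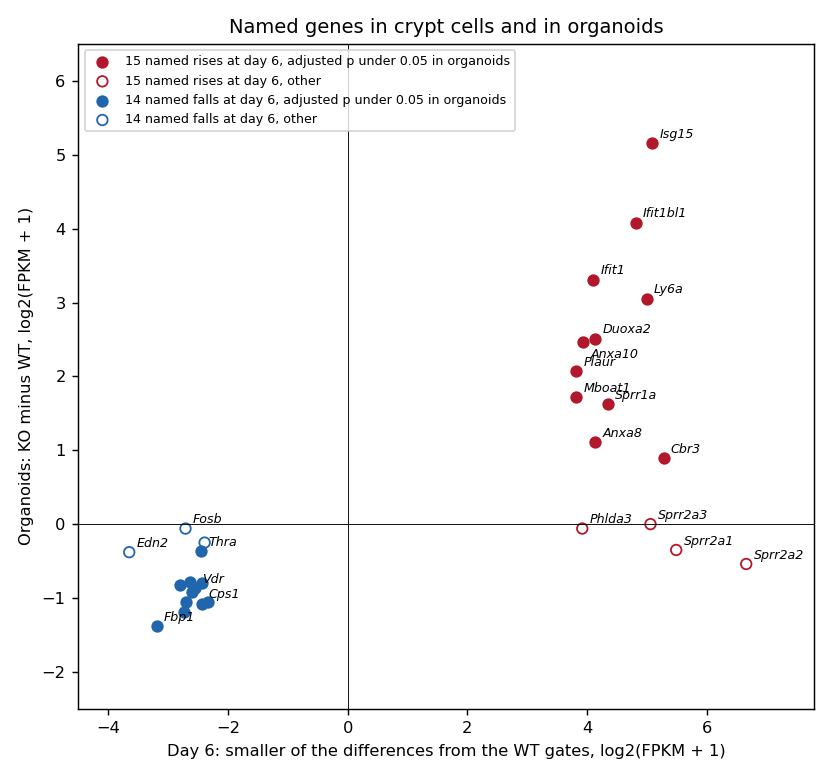
For 15 rises (red) and 14 falls (blue) at day 6, the x axis gives the smaller of the differences from the WT gates and the y axis the organoid difference, knockout minus WT, both on log2(FPKM + 1), with filled points for genes called in organoids. *Isg15* and *Ifit1bl1* are high on both axes, while *Phlda3*, *Edn2*, *Fosb* and the *Sprr2a* copies lie near or below 0 on the organoid axis.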

How the data were processed

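The series holds RNA-seq of sorted mouse crypt cells and of organoids, 20 libraries in all, with libraries made by an NEBNext Ultra kit according to the labels. Genome build mm10 and the tools StringTie 1.3.3b and HISAT2 2.1.0 appear in the submitters' processing notes, without their roles. The tissue libraries were deposited by the authors as FPKM per gene, per the file headers. The deposited organoid table names no unit in its header and was taken as FPKM. Depth is not stated in the sources used here and was estimated only roughly, so no counting intervals are given. No pair of libraries held identical values.

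The day 6 contrasts were fitted with limma 3.58.1 in R 4.3.3 (lmFit, eBayes with trend, two-sided) on log2(FPKM + 1) over 10 tissue libraries, the 5 groups with 2 libraries each, which share 1 estimate of the spread. Genes at 1 FPKM or more in at least 2 of the 6 compared libraries were tested, with Benjamini-Hochberg adjustment over all of them and a threshold of 0.05. The organoid contrast was fitted the same way over 8 libraries. The fit was tested on simulated data. Genes without a symbol were tested but not named.

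Named genes are the 15 largest rises and falls by the smaller of both differences with a mean of at least 5 FPKM in a group, 15 fixed genes, and up to 6 members of each of 33 lists with the smallest p-values, and others are marked in the text as named after their values were seen. The members and lists were chosen with earlier results of these data known. Promoters are RefSeq windows on GRCm38.p6, and 1 of 687 list symbols matched no gene. Lists were described by counts, with no test of their own. Alternatives covered filters, pseudocount, scaling, the libraries in the fit, a replicate block and each library left out. A result of 1 named gene is not reported here.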

Additional observations from a re-analysis of the deposited data

Results flagged for a closer look

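For 13 named genes both day 6 libraries lay on one side of all WT libraries while both knockout organoid libraries lay on the opposite side of both WT organoid libraries. The difference between the effects was not tested in any of them, and the p-values below are limma's for the organoid contrast alone. Among genes that rose at day 6, the organoid difference (knockout minus WT, log2) was -0.91 for *Gstm1* (adjusted p = 0.021) and -0.66 for *Mt2* (adjusted p = 9.4e-04). It was -0.54 for *Sprr2a2*, -0.35 for *Sprr2a1*, -0.34 for *Gsta4*, -0.20 for *Cry1*, -0.19 for *Bax* and -0.13 for *Cdkn1a*, none of which passed the threshold in organoids. Among genes that fell at day 6, it was 1.16 for *Id3* (adjusted p = 0.00178) and 0.50 for *Jun* (adjusted p = 0.0151). It was 0.58 for *Arntl*, a core activator of the circadian clock (adjusted p = 0.00581), 0.13 for *Id2* and 0.11 for *Zfp36*. The day 6 fall of *Arntl* was lost with any 1 of the 6 libraries left out, with no filter and at equal FPKM sums. That of *Id2* was lost in the same cases, except without the second day 6 library.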

How the results depend on the processing

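Of 58 differences from both gates, those of 15 named rises and 14 named falls, each kept its call under every scaling and with the filter at 5 FPKM, and 57 did with no filter, where *Cps1* lost the call against WT Lgr5-low. When either day 6 library was left out, some of these differences were no longer tested, since their genes then missed the filter. At equal FPKM sums the calls against WT Lgr5-low came to 667 and the joint calls to 512, and the share of higher genes fell to 26.9% against WT Lgr5-high, 37.6% against WT Lgr5-low, 21.2% outside the WT range and 41.4% of joint calls, beside 45.5%, 53.6%, 42.0% and 56.1% in the reported analysis. With median-of-ratios scaling 55.8% of calls against WT Lgr5-high were higher. The median difference over all genes, -0.17 and -0.09, became -0.48 and -0.30 at equal sums and -0.03 and -0.03 with median-of-ratios scaling. Removing a trend with gene length, chosen after seeing the data, gave 2522 calls against WT Lgr5-low and 1907 joint calls, and a single contrast against the mean of both gates gave 2753. A margin of 1 on the log2 scale left 479 genes outside the WT range. With 1 library left out, calls ranged from 615 to 2247 against WT Lgr5-high, 235 to 1013 against WT Lgr5-low, 6012 to 8970 outside the range and 183 to 799 jointly. Differences that no test called could change sign. Against WT Lgr5-low, *Lgr5* turned to 0.02 with the length trend removed and ranged from -0.46 to 0.30 with 1 library left out, *Mki67* ranged from -0.78 to 0.03 in the same way, *Atf4* was -0.19 at equal sums and ranged from -0.16 to 0.36, *Nqo1* was 0.01 with median-of-ratios scaling and ranged from -0.34 to 0.20, and *Lgals9* was -0.12 at equal sums. Against WT Lgr5-high and at equal sums, *Lgals9* was -0.18, *Atf4* -0.06 and *Ifitm3* -0.37, and *Ifitm3* ranged from -0.24 to 0.26 with 1 library left out. The cause was not tested. Replicate numbers are not stated to mark shared mice or days. Deviations of same-numbered day 6 libraries correlated with those of WT Lgr5-high and WT Lgr5-low at 0.19 and 0.25. With those of day 4 Lgr5-high and Lgr5-low they correlated at 0.53 and 0.05. Deviations of the WT gates correlated with each other at 0.46, and the remaining pairs of groups at 0.02 to 0.34. Whether the WT gates are independent comparisons was not tested. A fit with the replicate block gave 3608, 1947 and 1466 calls against WT Lgr5-high, WT Lgr5-low and both. With the block *Purb* (adjusted p = 0.0329) and *Reg3g* (0.0126) were also called against WT Lgr5-low and *Irf9* (0.0392) against WT Lgr5-high, and 2 of the 4 overexpressed factors fell against both gates.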
